A study of Mus musculus with 4 samples.

Results

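Plantaris muscle of M-PDK1KO mice and of control mice was compared 10 days after synergistic muscle ablation, an operation that removes the gastrocnemius and soleus of both legs and leaves the plantaris to carry the load. The comparison rests on 2 of the 4 arrays of the series, 1 from an M-PDK1KO and 1 from a control plantaris, and on all 22180 genes named by at least 1 probe set that names no other gene. The other 2 arrays hold sham-operated M-PDK1KO and sham-operated control plantaris, and they are used here only to show whether a difference was also seen without overload. All mice were male, total RNA was hybridised to Affymetrix Mouse Gene 2.0 ST arrays, and values are on a log2 scale, so that a difference of 1 is 2-fold. M-PDK1KO mice carry floxed Pdpk1 alleles and a Cre recombinase driven by the promoter of the fast myosin light chain Mlc1f, so deletion is aimed at myofibers and other cells of the muscle keep the gene. The mice called control are wild type in the sample labels, whereas the description of the animals gives flox/flox mice without Cre. The age of these mice is not stated for the arrays, nor is whether RNA of several animals was pooled. With 1 array per condition, no difference below has a replicate error or a test, and each is a description of these libraries.

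PDK1 is the kinase that phosphorylates the activation loop of Akt, S6 kinase, SGK and several protein kinase C isoforms, and it acts downstream of the lipid that PI3K makes when insulin or a growth factor binds its receptor. In muscle this pathway is known for driving protein synthesis and for holding back the FoxO factors that switch on genes of protein breakdown. Overload of a muscle is known to induce growth, to bring in macrophages and other immune cells, to remodel the extracellular matrix and to shift fibers toward a slower type. Heat shock chaperones and immediate early genes, which are switched on within minutes to hours by stress or stimulation, are known to be induced in muscle by loading.

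The genes with the largest differences included chaperones and immediate early genes, which were lower in the M-PDK1KO muscle. Interferon-stimulated genes were more often higher than lower in it, with differences of at most 0.88. Promoter stretches of a few genes of these groups are shown, among them Isg15, which differed by 0.04. The stretches let the reader see the elements through which heat shock factor, CREB and interferon-activated factors are known to act. They are RefSeq sequence of the mouse build GRCm38.p6, printed 5′ to 3′ along the strand of the gene and ending upstream of its start site, with the searched motif in capitals. The motifs were a heat shock element of 2 units (GAANNTTC or TTCNNGAA), the cAMP response element (TGACGTCA) and the interferon-stimulated response element (GAAA, any 2 bases, GAAA), each searched on both strands over 250 bases before the start.
Hspa1a, minus strand, chr17:34972227-34972286: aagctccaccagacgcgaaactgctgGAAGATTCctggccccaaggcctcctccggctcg
Hspa1b, minus strand, chr17:34959309-34959368: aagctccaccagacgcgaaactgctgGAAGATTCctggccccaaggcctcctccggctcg
Hsph1, minus strand, chr5:149636337-149636396: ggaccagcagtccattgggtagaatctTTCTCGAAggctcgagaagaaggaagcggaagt
Btg2, minus strand, chr1:134079288-134079347: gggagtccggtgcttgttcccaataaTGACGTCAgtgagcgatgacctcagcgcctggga
Ifit1, plus strand, chr19:34640769-34640828: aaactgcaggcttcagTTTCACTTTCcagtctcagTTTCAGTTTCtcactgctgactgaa
Ifit3, plus strand, chr19:34583363-34583426: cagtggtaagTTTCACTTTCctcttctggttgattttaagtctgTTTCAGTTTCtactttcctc
Isg15, minus strand, chr4:156200856-156200915: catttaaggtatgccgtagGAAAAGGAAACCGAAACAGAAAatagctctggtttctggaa

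The heat shock element of 2 units was found in 11 of the 27 heat shock chaperone genes with a promoter in the table (40.7%), against 14.5% of all 27025 genes with a promoter. The 11 count Hspa1a and Hspa1b separately. This element was also found in 7 of 23 interferon-stimulated genes (30.4%). The interferon-stimulated response element was found in 10 of 23 interferon-stimulated genes (43.5%), against 3.46% of all genes with a promoter. The cAMP response element was found in 2 of 24 immediate early genes outside AP-1, against 1.77%. The CArG box, through which serum response factor acts, was found in 3 of these 24 genes and in 0 of 10 AP-1 genes, against 1.62%. The promoters of Hspa1a and Hspa1b were identical at 247 of 250 bases, and the pair are near-identical copies of 1 gene, so signal on their probe sets may be shared and each value is uncertain as to which copy it came from. Isg15 holds 3 overlapping matches and had a log2 difference between the muscles of 0.04, Gbp3 holds 2 and had -0.27, and Ifit1 holds 2 and had 0.88. Dnajb1, Fos, Fosb and Atf3, and the interferon-stimulated genes Ifit2, Tap1 and Ifih1, held no match of the motif searched for their group, which says only that these letters are not in the window.

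The deleted gene was lower in the M-PDK1KO muscle. Pdpk1 had a log2 value of 6.23 in the M-PDK1KO and 6.85 in the control plantaris after ablation, a difference of -0.63, and the control was thus 1.54-fold higher. After sham surgery its values were 5.96 in M-PDK1KO and 6.81 in control muscle. It is not stated whether the probes of this gene match the deleted exons, and cells other than myofibers keep the gene. In RNA of whole muscle, fewer cells of a type and less RNA per cell cannot be told apart. Both arrays read as muscle. Of 14 myofiber markers, 13 lay at or above the 99.69th percentile of all genes on both arrays, led by skeletal actin Acta1 at 12.70 in M-PDK1KO and 12.65 in control muscle, and the slow myosin gene Myh7 was at 6.34 and 6.38. The differences of the 14 ran between -0.15 for Atp2a1, the fast calcium pump, and 0.11 for Myh1, the fast myosin IIx.

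**Figure D1:**
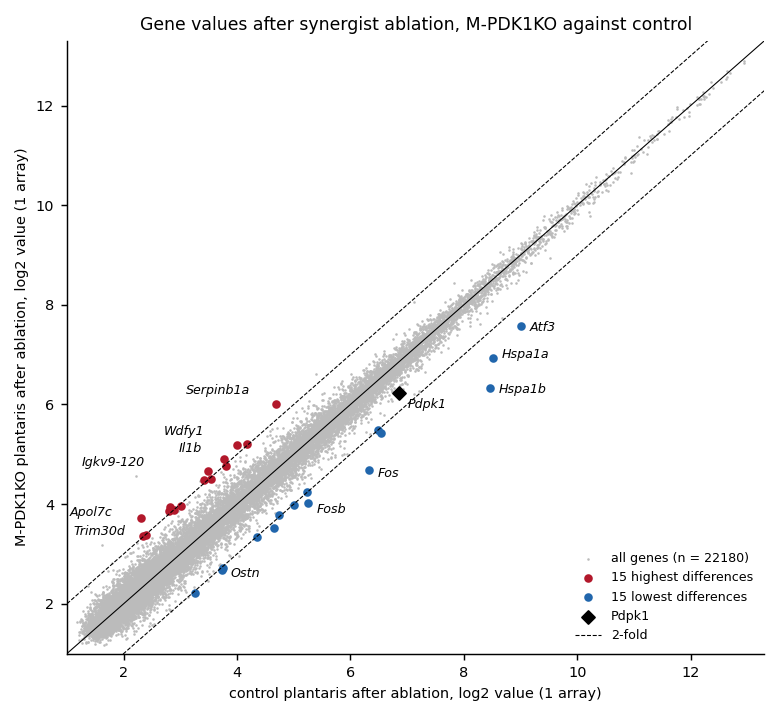
Each point is a gene, with its log2 value in control plantaris after ablation on the x axis and in M-PDK1KO plantaris after ablation on the y axis, 1 array each; the solid line marks equal values and the dashed lines a 2-fold difference. Most of the 22180 genes lie near the line of equal values, and Hspa1b, Fos, Hspa1a and Atf3 lie furthest below it among genes named by the rule.

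Few genes differed by much. Of the 22180 genes, 16 were at least 2-fold higher in M-PDK1KO muscle (0.0721%) and 15 at least 2-fold lower (0.0676%), and at 1.5-fold 245 were higher (1.10%) and 212 lower (0.956%). When each array was centred on its own median over genes, which moved the median difference to -0.03, the 1.5-fold counts became 193 higher and 264 lower, so the share of higher genes depends on how the arrays are aligned. The median difference was 0.001 and the SD across genes 0.231. The spread was widest between values of 3 and 5 and narrower above them. It was 0.22 for the 10172 genes under 3, 0.27 for the 5619 genes between 3 and 5, 0.21 for the 4474 between 5 and 7, 0.18 for the 1550 between 7 and 9 and 0.13 for the 365 genes at 9 and over, none of which was past 1.5-fold. By these levels, the genes at least 2-fold higher numbered 3, 11, 2, 0 and 0 and those at least 2-fold lower 3, 7, 2, 3 and 0, in the same order.

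Of the 16 genes that were at least 2-fold higher, 10 had symbols that the rule for naming takes. Apol7c, of the apolipoprotein L family, had the highest difference of these, with 3.72 in M-PDK1KO and 2.30 in control muscle after ablation, and its values after sham surgery were 2.15 and 2.16. Serpinb1a, an inhibitor of neutrophil serine proteases, had 6.01 in M-PDK1KO and 4.69 in control muscle after ablation, against 2.59 in M-PDK1KO and 3.10 in control muscle after sham surgery. The M-PDK1KO ablation array was thus the highest of the 4 for both genes. Il1b, the inflammatory cytokine interleukin-1β, had 4.90 in M-PDK1KO and 3.76 in control muscle, and Il1rl2, the receptor of the IL-36 cytokines of the same family, had 4.48 and 3.42. Slc15a3, a lysosomal transporter of peptides and histidine, had 3.94 in M-PDK1KO and 2.81 in control muscle. The sham-operated values of these 3 genes were lower than both ablation values of the same gene. Wdfy1, whose protein binds the lipid PI3P on endosomes, had 5.18 in M-PDK1KO and 4.00 in control muscle, Zfp931, a zinc finger gene, 4.65 and 3.49, Aph1c, a component of γ-secretase, 5.20 and 4.17, and the growth factor receptor Fgfr2 3.36 and 2.33. The pseudogene Stxbp3-ps, with 3.85 and 2.80, was the last of the 10. Just under 2-fold stood the sodium channel gene Scn3a at 0.99, the tubulin gene Tubb3 at 0.99, the interleukin-7 receptor Il7r at 0.96, the urea cycle enzyme Asl at 0.96 and Fam20a at 0.95. Of the other 6 genes, 1 was under the median value of all genes on both arrays and 5 were immunoglobulin segments or gene models without a name. A pair of these is named here after their values were seen. An immunoglobulin kappa variable segment had the highest difference of all genes, 2.34, with 4.56 in M-PDK1KO and 2.22 in control muscle, and Trim30d, of a family of ubiquitin ligases, had 3.17 and 1.61.

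Chaperones and immediate early genes headed the lower side, where 12 of 15 genes had symbols that the rule takes. Hspa1b and Hspa1a encode the inducible HSP70 that refolds damaged proteins. Hspa1b had 6.34 in M-PDK1KO and 8.47 in control muscle after ablation, which is 4.38-fold higher in control, and Hspa1a had 6.93 in M-PDK1KO and 8.52 in control muscle. For both, the M-PDK1KO ablation array was the lowest of the 4, since sham-operated muscle had 8.16 in M-PDK1KO and 7.66 in control for Hspa1b and 8.28 and 7.67 for Hspa1a. Fos, which encodes a subunit of the transcription factor AP-1, had 4.69 in M-PDK1KO and 6.33 in control muscle after ablation, against 5.32 in M-PDK1KO and 4.40 in control muscle after sham surgery. Atf3, a stress-induced partner of AP-1 factors, had 7.57 in M-PDK1KO and 9.01 in control muscle. Fosb had 4.03 and 5.25, and Egr1, an early growth response factor, 5.42 and 6.54. For Atf3 and Egr1 both ablation values stood above both sham values, while the M-PDK1KO value of Fosb after ablation was close to the sham values of 4.24 in M-PDK1KO and 4.02 in control muscle. The remaining 6 were the granzyme gene Gzmd at -1.12, the myokine gene Ostn at -1.05, the adapter gene of natural killer cells Sh2d1b2 at -1.04, the zinc finger gene Zfp458 at -1.04, the pseudogene Pisd-ps3 at -1.04 and Ccdc85c, which was just past 2-fold with 3.34 in M-PDK1KO and 4.35 in control muscle. Next came Btg2, an antiproliferative gene induced by stress, which had 5.49 in M-PDK1KO and 6.49 in control muscle, just short of 2-fold. Nos1, the nitric oxide synthase that sits under the muscle membrane, had 4.25 in M-PDK1KO and 5.23 in control muscle after ablation, and higher values of 6.31 and 6.63 after sham surgery. Cib1, which binds calcium and integrins, followed at -0.96.

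**Figure D2:**
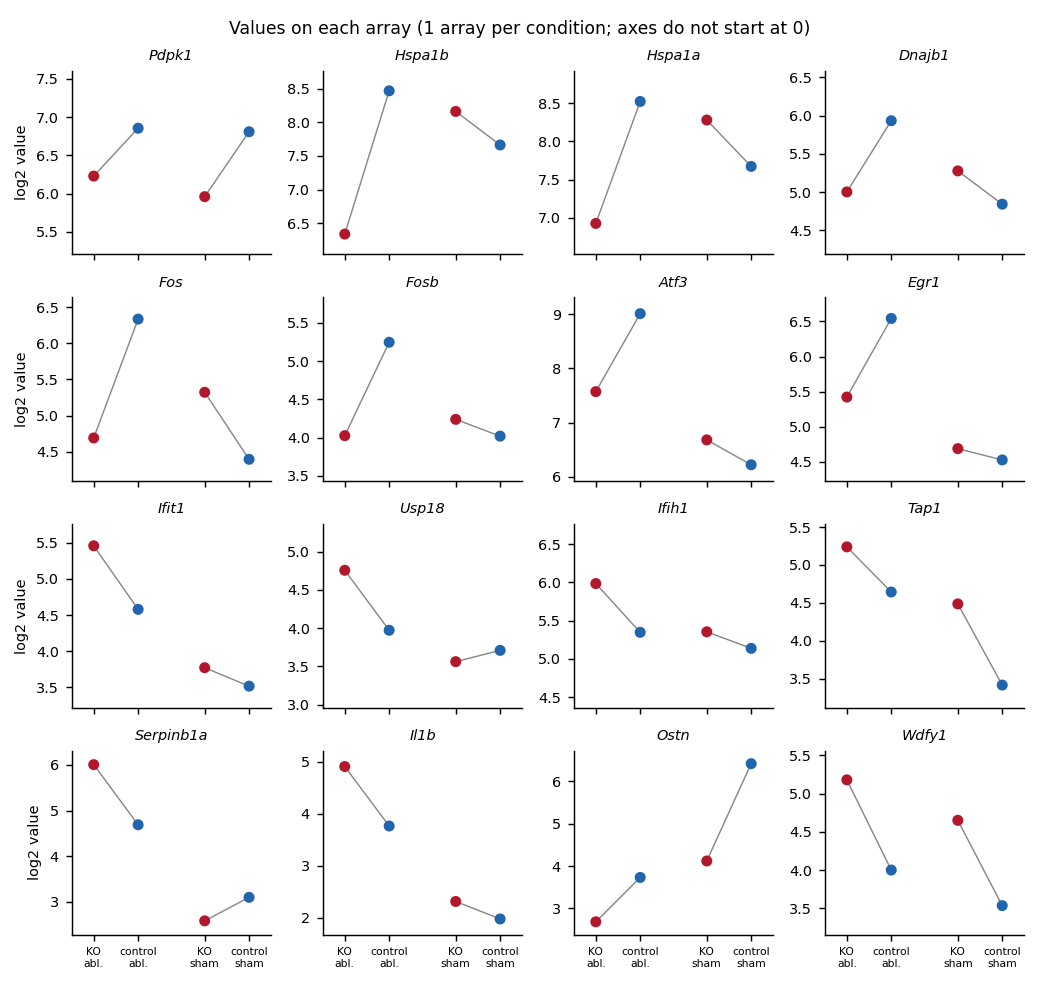
Log2 value of 16 genes on each of the 4 arrays, with M-PDK1KO in red, control in blue, the ablation pair on the left of each panel and the sham pair on the right. Hspa1b, Hspa1a, Dnajb1 and Fos have their lower ablation value in M-PDK1KO and their higher sham value in M-PDK1KO, while Pdpk1 and Ostn are lower and Tap1 and Wdfy1 higher in M-PDK1KO in both pairs.

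Chaperones and immediate early genes were also described as whole lists, written from general knowledge. Of 31 measured heat shock chaperones, 22 were lower in M-PDK1KO muscle after ablation (71.0%) against 49.5% of all genes, and the median difference was -0.11, against 0.001 over all genes. Past 1.5-fold, where 0.956% of all genes were lower and 1.10% higher, 4 were lower and 0 higher. The 4 count Hspa1a and Hspa1b separately, though signal on their probe sets may be shared. Beside this HSP70 pair the 4 held Dnajb1, an HSP40 co-chaperone, with a difference of -0.93. Hsph1, a large chaperone related to HSP70, was the last, with 6.66 in M-PDK1KO and 7.32 in control muscle. After sham surgery 21 of the 31 were higher in M-PDK1KO muscle, against 48.9% of all genes, and the median was 0.03. Of 10 AP-1 factors, 8 were lower, the median was -0.18 and the 3 lower ones past 1.5-fold were Fos, Atf3 and Fosb, while Jun had 7.84 in M-PDK1KO and 8.28 in control muscle. Of 32 other immediate early genes, 24 were lower, the median was -0.18 and the 3 past 1.5-fold were Egr1, Btg2 and Nr4a1, a nuclear receptor, with 7.62 and 8.29. Ier5, which follows them, had 5.74 and 6.28. After sham surgery the direction of these lists was turned. There 8 of 10 AP-1 factors and 28 of 32 other immediate early genes were higher in M-PDK1KO muscle, against 48.9% of all genes. Their medians were 0.24 and 0.27. These lists were known from earlier results of these arrays to differ, so their counts are not independent evidence.

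Genes of interferon responses and a few genes of innate immunity were higher in the M-PDK1KO muscle. Of 28 interferon-stimulated genes, 20 were higher after ablation (71.4%), against 50.3% of all genes, with a median of 0.17. Past 1.5-fold, where 1.10% of all genes were higher, 5 were higher and 0 lower. Ifit1, which binds viral RNA, had 5.46 in M-PDK1KO and 4.58 in control muscle. Its neighbor in the family Ifit2 had 3.39 and 2.67. Usp18, which removes ISG15 from proteins and restrains interferon signaling, had 4.76 and 3.97, Ifih1, the RNA sensor MDA5, 5.98 and 5.35, and Tap1, a transporter of antigen peptides, 5.24 and 4.64. The other members ran between -0.31 and 0.47. Among those with the response element printed above, Ifit3 differed by 0.47 and Isg15 by 0.04. After sham surgery 16 of 28 were higher, against 48.9% of all genes, with a median of 0.05. Of the 5 genes past 1.5-fold after ablation, Tap1 had a sham difference of 1.07, Ifit1 0.26 and Ifih1 0.22. Ifit2 and Usp18 had sham differences of -0.29 and -0.15. Of 31 chemokines and cytokines, 22 were higher in M-PDK1KO muscle after ablation (71.0%), against 50.3% of all genes, with a median of 0.14. Il1b was the 1 past 1.5-fold, where 1.10% of all genes were higher. After sham surgery 22 of the 31 were higher as well, against 48.9% of all genes, with a median of 0.10. Ccl12 and Ccl4, which attract monocytes and lymphocytes, differed by 0.54 and 0.41 after ablation, whereas the monocyte attractant Ccl2 differed by -0.42.

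Macrophage markers are given beside these lists, since macrophages are a source of such RNA in loaded muscle. Of 24 measured markers, 14 were higher in M-PDK1KO muscle (58.3%), against 50.3% of all genes, and 10 lower, with a median difference of 0.07. Their median log2 value was 6.43 in M-PDK1KO and 6.30 in control muscle after ablation, and 3.93 and 4.15 after sham surgery. Itgam, the integrin CD11b of myeloid cells, was the 1 marker past 1.5-fold, with 5.94 in M-PDK1KO and 5.15 in control muscle, and Gpnmb and Mrc1 differed by 0.47 and 0.40. Trem2, a lipid receptor of macrophages, differed by -0.51. The growth factor receptor Csf1r that defines the lineage had 7.17 in M-PDK1KO and 7.20 in control muscle, the lysozyme gene Lyz2 10.16 and 10.18, and C1qb 8.84 and 8.85. The differences of the 24 markers ran between -0.51 and 0.79. Of 17 complement components, C3ar1, the receptor of C3a on myeloid cells, was past 1.5-fold at 6.23 in M-PDK1KO and 5.53 in control muscle, and the median was 0.06. The part of immune cells in the higher interferon-stimulated genes was not tested.

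**Figure D3:**
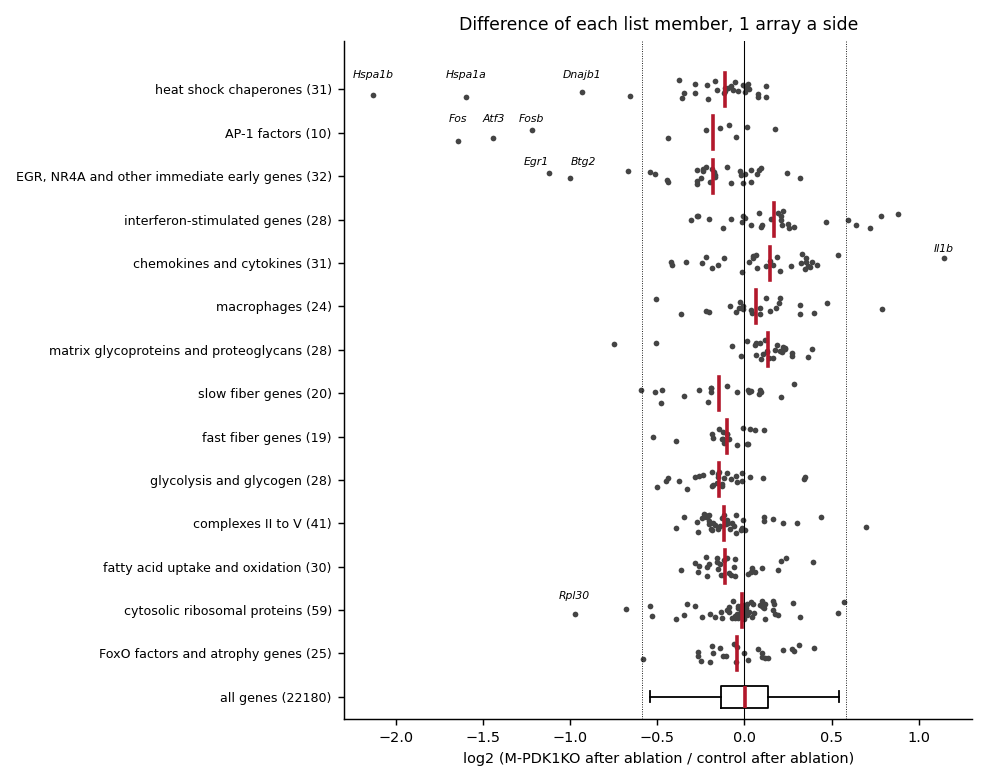
Log2 difference, M-PDK1KO over control after ablation, of every measured member of 14 gene lists, with the number measured in parentheses, a red bar at each median and dotted lines at 1.5-fold; the box shows the quartiles of all 22180 genes, with whiskers of at most 1.5 times the interquartile range. Heat shock chaperones and AP-1 factors have long tails to the left, interferon-stimulated genes have 5 members beyond the right dotted line, and Rpl30, labelled as an outlying value, is a gene of low signal.

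Genes of glycolysis and of respiratory complexes II to V had more lower than higher members in the M-PDK1KO muscle, with nearly all members within 1.5-fold. So were nearly all genes, of which 1.10% were past it higher and 0.956% lower. Of 28 genes of glycolysis and glycogen, 24 were lower (85.7%), against 49.5% of all genes, with a median of -0.15 and 0 past 1.5-fold. Ldhb, a subunit of lactate dehydrogenase, had 6.68 in M-PDK1KO and 7.18 in control muscle, Phka1, a regulatory subunit of phosphorylase kinase, 8.50 and 8.95, and Ppp1r3c, which targets protein phosphatase 1 to glycogen, 8.65 and 9.09. Of 41 genes of respiratory complexes II to V, 33 were lower (80.5%), with a median of -0.12. The cytochrome gene Cyc1 had 7.51 in M-PDK1KO and 7.91 in control muscle, whereas Atp5g1, an ATP synthase subunit of low signal here, was past 1.5-fold higher at 4.58 and 3.88. The shares of the other lists were nearer to that of all genes. Complex I had 22 of 33 genes lower with a median of -0.06, pyruvate dehydrogenase and the citric acid cycle 21 of 28 with a median of -0.10, fatty acid uptake and oxidation 21 of 30 with a median of -0.11 and amino acid catabolism 19 of 27 with a median of -0.08. Of these 4 lists, 1 gene was past 1.5-fold, the pyruvate dehydrogenase phosphatase gene Pdp2 at -0.61. After sham surgery the medians of all 6 lists lay between -0.10 and -0.01, and that of amino acid catabolism, at -0.10, was below its value after ablation. After ablation, all genes of the signal levels usual in these lists had a median of -0.007 or -0.003.

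Slow fiber genes, which are known to increase under chronic load, went both ways. Of 20 slow fiber genes, 12 were lower, against 49.5% of all genes, with a median of -0.15. The 4 most negative differences were those of Tnni1, Tnnt1, Myl2 and Tnnc1. The slow troponins had Tnni1 at 6.41 in M-PDK1KO and 7.01 in control muscle, Tnnt1 at 6.72 and 7.24 and Tnnc1 at 6.77 and 7.25, and the slow myosin light chain Myl2 had 4.45 and 4.93. Tnni1 was the 1 gene of the list past 1.5-fold. On the higher side were Myh7b, a slow myosin gene, at 0.29 and the Z-disc gene Myoz2 at 0.21. After sham surgery the list had a median of 0.25, with 15 of 20 higher in M-PDK1KO muscle, against 48.9% of all genes. All 3 troponins had sham values of 5.20 or less, below both ablation values. Of 19 fast fiber genes, 14 were lower after ablation, with a median of -0.10. Of the 19, 0 were past 1.5-fold, against 1.10% of all genes higher and 0.956% lower. Their leading members were Eya1, a transcription cofactor of fast fibers, at -0.52, and the myosin light chain kinase gene Mylk2 at -0.39. Calcium handling genes had 21 of 31 lower, with a median of -0.06, and Stac3, needed for excitation-contraction coupling, had 7.57 in M-PDK1KO and 8.10 in control muscle.

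Lists of PDK1 and AGC kinases, PI3K, mTOR, insulin and IGF signaling and AMPK had medians between -0.03 and 0.06. Of 20 measured PDK1 and AGC kinase genes, 14 were higher (70.0%), against 50.3% of all genes, and 6 lower. Pdpk1 itself was the 1 past 1.5-fold. Akt1 had 7.73 in M-PDK1KO and 7.72 in control muscle, Akt2 7.35 and 7.29 and Sgk1 6.68 and 6.57, while Prkch, a protein kinase C isoform, had the largest difference beside Pdpk1, with 5.91 and 5.47. Genes of PI3K and its phosphatases had a median of 0.06, mTOR components 0.01, insulin and IGF signaling -0.03 and AMPK subunits -0.02. In these 4 lists 0 genes were past 1.5-fold, where 1.10% of all genes were higher and 0.956% lower. A count of 0 is near these shares for lists of this size. Among their leading members were Inpp5d, the phosphatase SHIP1 of blood cells, at 0.49, the mTORC2 subunit gene Prr5 at 0.55, the mTORC1 inhibitor PRAS40 gene Akt1s1 at -0.40, the insulin receptor substrate gene Irs2 at -0.44 and the IGF-1 receptor gene Igf1r at 0.42. For Irs2 the sham pair ran the other way, with 7.92 in M-PDK1KO and 6.95 in control muscle. Rps6kb1 was not analysed here.

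Lists of protein synthesis and breakdown had medians between -0.07 and 0.03. Of 59 ribosomal protein genes, 27 were higher and 32 lower, with a median of -0.01. Ribosome biogenesis, translation factors and aminoacyl-tRNA synthetases had medians of -0.02, -0.06 and 0.03 with 0 members past 1.5-fold. Of all genes, 1.10% were past 1.5-fold higher and 0.956% lower. Both ribosomal protein genes past 1.5-fold were lower and of low signal, Rps14 at 3.10 in M-PDK1KO and 3.78 in control muscle and Rpl30 at 1.86 and 2.84. FoxO factors and atrophy genes had 11 of 25 higher and 14 lower, with a median of -0.05. Fbxo32, the FoxO target that encodes the ubiquitin ligase atrogin-1, had 7.14 in M-PDK1KO and 7.72 in control muscle, which falls just short of 1.5-fold, and the ubiquitin ligase gene Fbxo30 differed by 0.40. Autophagy genes had 17 of 26 lower, against 49.5% of all genes, with a median of -0.05. Proteasome subunits had 21 of 30 lower with a median of -0.07. After sham surgery 25 of 30 proteasome subunits were lower, against 50.8% of all genes, with a median of -0.11. Mstn, which encodes myostatin, a brake on muscle growth, was past 1.5-fold lower with 5.71 in M-PDK1KO and 6.37 in control muscle. It was also lower after sham surgery, with 8.43 in M-PDK1KO and 8.86 in control muscle. Chac1, an ATF4 target that degrades glutathione, had 4.28 in M-PDK1KO and 4.96 in control muscle after ablation. Hmox1 and Nqo1, stress-induced antioxidant enzymes, had 5.41 and 4.51 in M-PDK1KO muscle and 6.34 and 5.15 in control muscle, and the other 19 genes of their list were within 1.5-fold.

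The extracellular matrix was a little higher in the M-PDK1KO muscle for glycoproteins. Of 28 matrix glycoprotein and proteoglycan genes, 24 were higher (85.7%), against 50.3% of all genes, with a median of 0.14. After sham surgery 10 of 28 were higher, against 48.9% of all genes, with a median of -0.03. Tenascin C (Tnc) had 9.77 in M-PDK1KO and 9.41 in control muscle and the hyaluronan synthase gene Has2 differed by 0.39, whereas Has1, another hyaluronan synthase, was past 1.5-fold lower with 4.32 and 5.07. Collagens had 12 of 18 higher (66.7%) with a median of 0.07, and Col1a1, the main fibrillar collagen, had 12.20 and 12.21. Of 21 metalloproteinases and inhibitors, Mmp12, the macrophage elastase, was past 1.5-fold at 5.97 in M-PDK1KO and 5.26 in control muscle, and Adam12, a marker of activated stromal cells, had 7.02 and 6.44. Fibroblast markers, which share some of these genes, had 13 of 19 higher (68.4%) with a median of 0.12 after ablation. After sham surgery 13 of 19 were higher, with a median of 0.10. The part of fibroblast number in the matrix values was not tested.

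**Figure D4:**
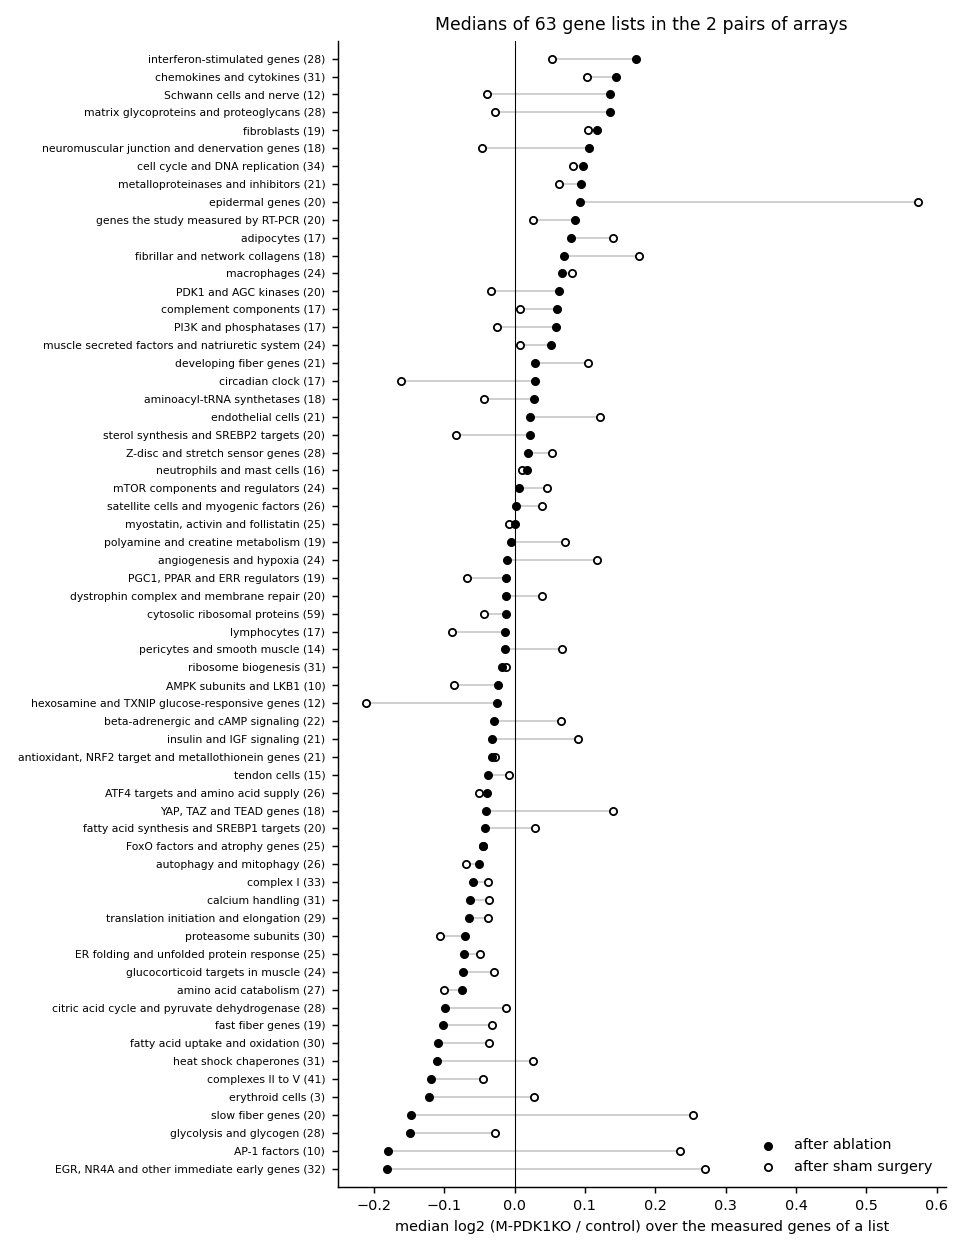
Median log2 difference, M-PDK1KO over control, of 63 gene lists after ablation (filled) and after sham surgery (open), with the number of measured genes in parentheses. Immediate early genes, AP-1 factors and slow fiber genes have filled points left of 0 and open points right of 0; medians within 0.02 of 0 after ablation can change side when the arrays are centred.

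Genes of protein breakdown, matrix, angiogenesis and calcium handling that had been picked for RT-PCR formed a further list. It holds both Trim36 and Trim63, the symbols used in the text and in the plot of those measurements, and Pdgfc, the symbol of the plot where the text has Ptgfc. Of its 20 genes, 11 were higher and 9 lower in M-PDK1KO muscle after ablation, with a median of 0.09. Of the 20, 0 were past 1.5-fold, against 1.10% of all genes higher and 0.956% lower. The largest differences in the list were those of Pdgfc, a platelet-derived growth factor, at 0.58 and Fbxo32 at -0.58. Trim36 had 0.08 and Trim63 -0.19. Tnc had 0.36 and Sln, the calcium pump inhibitor sarcolipin, -0.26. Sln had 5.13 in M-PDK1KO and 4.16 in control muscle after sham surgery, so its direction was not the same in the 2 pairs. The remaining genes of this list differed by at most 0.25 in size.

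The sham-operated pair shares no array with the ablation pair, and most of the differences were not seen in it. Of the 16 genes at least 2-fold higher after ablation, 7 were also higher after sham surgery (43.8%), against 48.9% of all genes, and of the 15 lower ones 6 were also lower (40.0%), against 50.8%. At 1.5-fold the shares were 121 of 245 higher (49.4%) and 114 of 212 lower (53.8%). A difference seen after ablation thus came with the same sign after sham surgery about as often as for any gene. Across the 11590 genes above the median value the correlation of the differences was 0.05, a description over genes, which share the arrays. In the sham pair, 1.28% of all genes were past 1.5-fold on the higher side and 1.15% on the lower side. Of the 245 genes past 1.5-fold higher after ablation, 10 were past it in the same direction after sham surgery. Of the 212 lower ones 16 were. Both are larger shares than the 1.28% and 1.15% of all genes. However, 124 of the 245 and 89 of the 212 had mean values between 3 and 5, where the spread was widest in both pairs. Genes that spread more can pass 1.5-fold more often in any pair, and 15 genes passed it in opposite directions. The larger shares alone thus do not show that differences repeat. Of the 10 higher and 16 lower genes past it in the same direction, the rule names 6 and 9. Wdfy1 led the higher ones, with sham values of 4.65 in M-PDK1KO and 3.54 in control muscle. Tap1 had 4.49 and 3.41 after sham surgery, and the others were Cdkn2aip, Zfp784, Cyp4v3 and the DNA repair gene Rad50, with ablation differences between 0.61 and 0.65. A second probe set of Zfp784 gave -0.08.

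Among the genes lower in both pairs was Ostn, which encodes osteocrin, a hormone secreted by muscle that binds the clearance receptor of natriuretic peptides. It had 2.69 in M-PDK1KO and 3.73 in control muscle after ablation, and 4.12 and 6.41 after sham surgery, so that both ablation values were below both sham values. Aldh1a1, which makes retinoic acid, differed by -0.92 after ablation and by -0.69 after sham surgery, and Lrtm1 4.70 and 5.48 after ablation and 5.93 and 6.69 after sham surgery. Pdpk1 ranked with these genes. The others were Sh2d1b2, Nom1, Khnyn, Serpinb9, an inhibitor of granzyme B, and Chac1, with ablation differences between -1.04 and -0.64. In the opposite sense, 15 genes were past 1.5-fold in both pairs but in opposite directions, and of these the rule names Fos and Hspa1a. Epidermal genes, which mark skin and not muscle, had a median of 0.57 after sham surgery. Of these, 18 of 20 were higher in M-PDK1KO, against 48.9% of all genes. After ablation the median was 0.09 with 13 of 20 higher, against 50.3% of all genes. The signal of these genes was low, with median log2 values after sham surgery of 2.93 in M-PDK1KO and 2.58 in control muscle. Both are under the median of 3.23 over all genes and arrays. Their part in the sham differences was not tested.

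**Figure D5:**
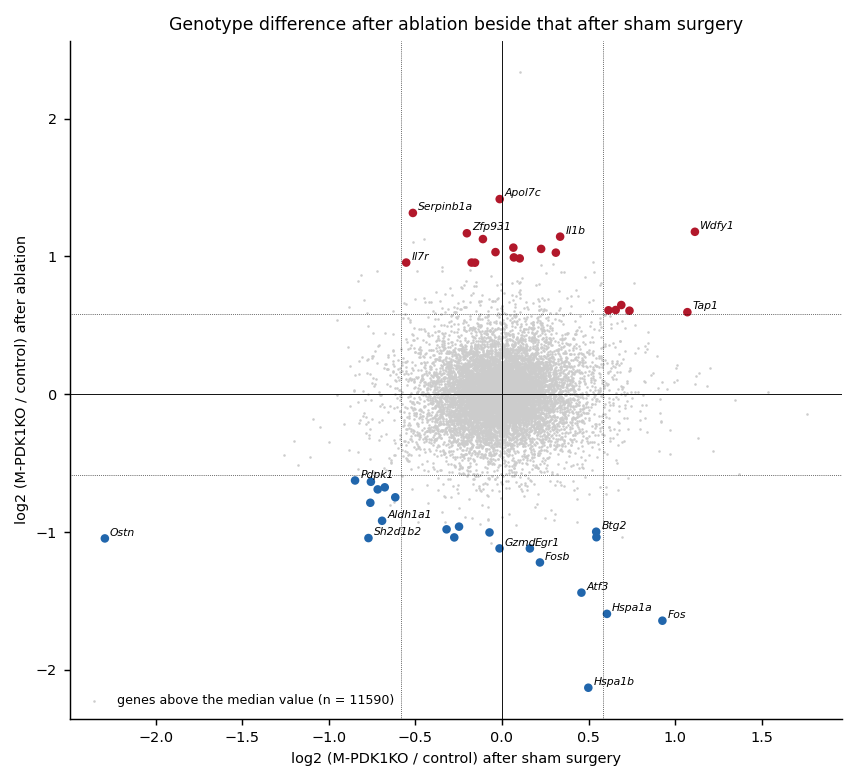
Log2 difference, M-PDK1KO over control, after sham surgery on the x axis and after ablation on the y axis, for the 11590 genes above the median value (gray); colored points are the 15 highest and 15 lowest genes after ablation and the genes past 1.5-fold in the same direction in both pairs, red where higher and blue where lower after ablation, and dotted lines mark 1.5-fold. The cloud shows little slope, with a correlation of 0.05, Ostn and Wdfy1 lie in the corners of like sign, and Fos, Hspa1a and Hspa1b lie at the lower right.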

How the data were processed

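Plantaris RNA of the 4 conditions was hybridised to 1 Affymetrix array (Mouse Gene 2.0 ST) each. The log2 values were used as deposited by the authors. Their range, 0.7 to 13.2, is that of a log2 scale. The methods name Transcriptome Viewer. Background correction, summarisation, normalization and genome build are not given in the sources used here. The medians of all probe sets were 2.69 on both ablation arrays and 2.68 (M-PDK1KO) and 2.66 (control) on the sham arrays. The number of arrays limits the precision.

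Of 41345 probe sets, 23521 name exactly 1 gene in the platform annotation, 1820 name several and 16004 name none there. For the 1082 genes with several, the highest-mean probe set stands for the gene. Differences are M-PDK1KO minus control, and no test was run. Genes past 2-fold and past 1.5-fold were counted. The genes named are Pdpk1, the 15 highest and 15 lowest differences among genes that exceed 3.23 (the median over genes and arrays) on 1 or both arrays, up to 4 leading members of each list, the RT-PCR genes, and up to 10 genes per direction past 1.5-fold in both pairs. Unnamed models, small RNAs, chemosensory receptors and immunoglobulin segments were left out. The members and the 63 lists (1323 of 1455 symbols measured) were chosen with earlier results of these data known. Akt1, Akt2, Sgk1, Csf1r, Lyz2, C1qb, Ifit3, Isg15, Gbp3, Myh7b, Myoz2, Rpl30, the myofiber markers, Trim30d and 1 immunoglobulin segment were named outside the rule or after their values were seen. Promoters were taken from RefSeq (GRCm38.p6). The steps were checked on simulated arrays, in Python 3.11.15 (numpy 2.4.6, pandas 2.3.3, matplotlib 3.10.9). The alternatives were averaging the probe sets of a gene, quantile normalization, median centring, a filter and a floor at the median value, all probe sets, and the mean of a list.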

Additional observations from a re-analysis of the deposited data

Results flagged for a closer look

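For 2 of the genes named, the difference between M-PDK1KO and control muscle was past 1.5-fold in opposite directions in the 2 pairs of arrays. Fos differed by -1.64 after ablation and by 0.93 after sham surgery, and Hspa1a by -1.59 and 0.61. Whether the pairs differ was not tested, since each condition has 1 array.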

How the results depend on the processing

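With 1 array per condition, no array could be left out and no error could be given. No paired analysis was possible because each group holds a single array and the labels give no replicate numbers. The counts of genes at least 2-fold higher and lower in M-PDK1KO muscle after ablation, 16 and 15, became 10 and 9 with values floored at the median value and 235 and 270 over all probe sets, which include those that name several genes or none. The 1.5-fold counts, 245 and 212, became 126 and 106 with the floor and 1149 and 1247 over all probe sets, and the filter on genes above the median value left 138 lower. The other alternatives kept the counts within 1.5 times. Of the 31 genes past 2-fold, 31 were shared with the mean of probe sets, 29 with median centring, 28 with quantile normalization, 28 with the filter and 19 with the floor. Of the 280 genes named, the difference moved by 0.1 or more in 21 with the floor and in 9 with the mean of probe sets, and none past 1.5-fold changed sign. A list's median changed sign in 1 to 7 of 63 lists per alternative, all with a main median within 0.051 of 0. It moved by 0.1 or more in 3 lists with the filter, 2 with the floor and 2 with the mean, the last being heat shock chaperones and AP-1 factors. Low signal limits what the arrays show, since 10172 genes had a mean value under 3.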

Other observations

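Genes of the cell cycle and DNA replication had 25 of 34 members higher in M-PDK1KO muscle after ablation (73.5%), against 50.3% of all genes. Their median was 0.10. Of the 34, 0 were past 1.5-fold, against 1.10% of all genes higher and 0.956% lower. The helicase subunit gene Mcm6 had 5.66 in M-PDK1KO and 5.11 in control muscle and the mitotic kinase gene Aurkb 4.07 and 3.51, whereas Mcm5, of the same helicase, had 3.83 and 4.32. Satellite cell and myogenic genes were balanced, with 13 of 26 higher and a median of 0.00. Myog, the factor of differentiating myoblasts, had 7.01 in M-PDK1KO and 6.58 in control muscle, and Pax3, a factor of muscle progenitors, was lower at 3.14 and 3.72.

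Genes of the neuromuscular junction had 11 of 18 members higher (61.1%), against 50.3% of all genes, with a median of 0.11. Lrp4, the agrin receptor, was past 1.5-fold lower with 4.29 in M-PDK1KO and 4.96 in control muscle. Of Schwann cell and nerve genes, Ngfr, a neurotrophin receptor, had 3.20 and 3.94. Among lipid genes, Dgat2, which makes triglyceride, had 4.94 in M-PDK1KO and 5.66 in control muscle, and the mitochondrial transcription factor gene Tfb2m had 5.38 and 5.91. Pde4a, which degrades cAMP, had 4.90 and 5.61 after ablation and nearly equal values of 6.96 and 6.97 after sham surgery. The natriuretic peptide gene Nppc had 3.53 in M-PDK1KO and 2.91 in control muscle, and Npr1, a receptor of that peptide family, had 4.22 and 3.67. For Npr1 another probe set gave a difference of 0.04, and the sham difference of the probe set used was -0.26.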
